A study of Mus musculus with 60 samples.

Results

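Visceral fat of mice on a Western diet was compared here with visceral fat of mice on a control diet, in the animals that were not given NaKtide. The comparison used 10 of the 60 RNA-seq libraries of the series, 5 from each diet, chosen by their sample labels. The series covered liver, visceral fat and subcutaneous fat in 12 groups of 5 mice, which differed in tissue, diet and NaKtide, a peptide that acts on the Na,K-ATPase and Src signalling complex. The control diet held 11% fat, 62% carbohydrate and 27% protein, while in the Western diet carbohydrate made up 42.7%, fat 42% and protein 15.2%. Both were fed for 12 weeks. NaKtide expression was switched on in transgenic mice by doxycycline in the food at 300 mg/kg. The title of the series speaks of adipocyte Na,K-ATPase, and the labels name neither the promoter that drives the transgene nor whether the mice without NaKtide carried it or ate doxycycline. The sources used here state no strain, sex or age. The labels give 5 mice to each group but do not tie a library number to a mouse, so the p-values measure the spread between these libraries. Western libraries 4 and 5 were the most alike, with a chi-square per gene of 3.1 between their counts. The other Western pairs gave 15.7 to 83 and the control pairs 10.1 to 300. All libraries were treated as independent, and the reason for this likeness was not tested.

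Fat tissue stores triglyceride in adipocytes and releases fatty acids when food is scarce. Its adipocytes make fatty acids from glucose through acetyl-CoA, a route run by Acly, Acss2, Acaca, Fasn and the Scd desaturases, and they secrete leptin, adiponectin and adipsin. In obesity visceral fat is known for enlarged adipocytes, chemokines such as Ccl2 that draw monocytes, macrophages that take up lipid from dying adipocytes, and deposition of collagen. The Na,K-ATPase pumps sodium and potassium across the plasma membrane and is also described as a scaffold for Src, with oxidants as an amplifying signal.

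The 10 libraries held between 5321350 and 9493820 counts. Control libraries 3, 4 and 5 stood apart, because they carried RNA of genes that mark the male reproductive tract. The labels do not say which visceral depot was taken. The summed level of 60 markers of epididymis, accessory glands, germ cells, Leydig and Sertoli cells was 20780, 57980 and 39181 CPM in these libraries, where CPM are counts scaled to a common library total, here the raw one. It was 736 and 64.3 in control libraries 1 and 2, 2042 in Western library 1 and between 11.2 and 24.9 in Western libraries 2 to 5. Of the 20 visceral libraries of all 4 diet and NaKtide groups, 8 exceeded 1000 CPM, namely these 3 control libraries, Western library 1 and 4 libraries with NaKtide. Leaving these 8 out leaves 2 control against 4 Western libraries in a fit of 12, and leaving out control libraries 3 to 5 alone leaves 2 against 5 in a fit of 17. Results are given with and without them. Genes that followed the tract RNA were set apart as a tract-linked set: the markers, genes at least 4-fold higher in control libraries 3 to 5 than in 1 and 2, and genes at least 4-fold higher in the tract-rich NaKtide libraries than in the others of their group.

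The same control libraries held less adipocyte RNA. Levels from here on are CPM after TMM scaling, a library scaling that assumes most genes do not differ. The sum of 10 adipocyte markers was 39270, 33250, 21770, 12710 and 1681 CPM in control libraries 1 to 5, and 17270, 22880, 17470, 18360 and 19050 CPM in Western libraries 1 to 5. The diets overlapped and did not differ by the exact two-sided permutation test over all 10 libraries (p = 0.77, adjusted over 18 marker lists 0.99), while every Western library lay below control libraries 1 and 2 (p = 0.0476, the smallest that 2 against 5 can give). Adipoq, which defines adipocytes, was counted in every library, at 53 CPM in control library 5 and at 825 CPM or more in the other 9. The share of counts from mitochondrial genes was 6.46%, 4.8%, 5.45%, 2.6% and 0.934% in control libraries 1 to 5, and between 1.73% and 2.63% in the Western libraries.

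Markers of immune and stromal cells were higher on the Western diet. The 10 macrophage markers summed to 781, 851, 506, 451 and 226 CPM in control libraries 1 to 5 and to 2014, 3570, 4340, 2689 and 2530 CPM in Western libraries 1 to 5. The lowest Western library thus held more than the highest control library. The exact permutation p was 0.00794, the smallest that 5 against 5 can give, and 0.0357 after adjustment over the 18 lists. Fibroblast progenitor markers (220 to 987 CPM against 1501 to 2886 CPM), lymphocyte markers (6.3 to 14.9 CPM against 18.9 to 43.9 CPM) and pancreas markers (5.76 to 34.9 CPM against 52.6 to 160 CPM) gave the same exact p-values, with no overlap. Mesothelial markers were higher and epididymis markers lower on the Western diet (exact p = 0.0159, adjusted 0.0476, for each). The epididymis RNA of control libraries 3 to 5 was known before this test. The outcome for the epididymis list was therefore largely built in and is not read as an effect of diet. Without control libraries 3 to 5 no list passed the adjusted threshold, and the exact p of the macrophage list was 0.0476. In bulk tissue, fewer cells of a type and less RNA per cell cannot be told apart.

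**Figure D1:**
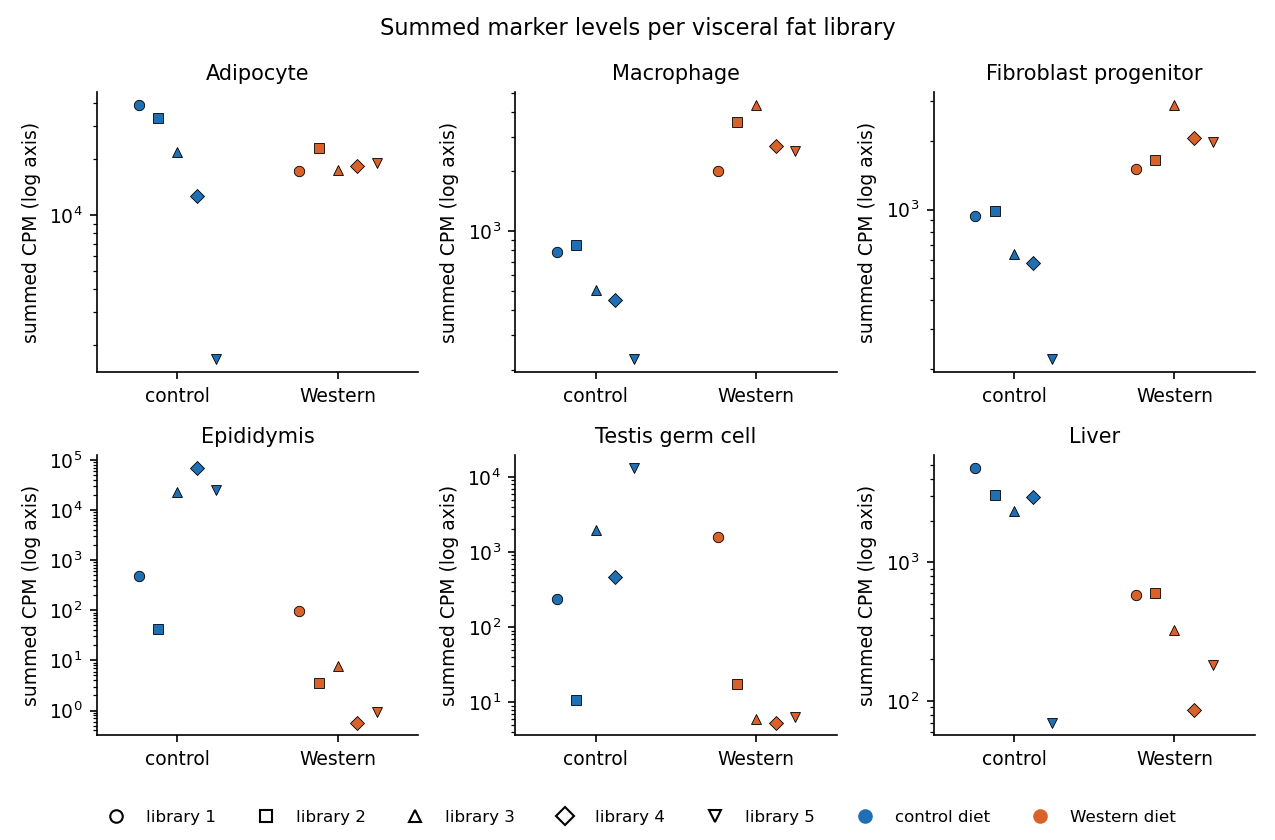
Summed TMM-scaled CPM of 6 marker lists in each library (log axis; control diet in blue, Western diet in orange; marker shape gives the library number, n = 5 per diet). Macrophage and fibroblast progenitor markers lie above every control library in the 5 Western libraries, adipocyte markers spread from 39270 down to 1681 CPM over the control libraries, and epididymis markers lie between 22490 and 68500 CPM in control libraries 3 to 5.

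Markers of other tissues were present unevenly, and the liver, muscle and nerve lists did not pass the adjusted threshold. The 8 liver markers reached 4781, 3063, 2334, 2979 and 70.1 CPM in control libraries 1 to 5 and between 85.6 and 602 CPM in the Western libraries (exact p = 0.0476, adjusted 0.107). Skeletal muscle markers were at most 198 CPM except in Western library 4 (475 CPM), and nerve markers reached 995 CPM in control library 1. Of the pancreas list given above, Prss2 had no count in the 10 libraries. The part of these other tissues in the results below was not tested.

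Across the genome, 17235 genes had enough counts to be tested with edgeR's quasi-likelihood test in a fit of all 20 visceral libraries. At a Benjamini-Hochberg adjusted p of at most 0.05, which is what "called" means below, 1816 genes were higher on the Western diet (10.5% of the genes tested) and 2471 were lower (14.3%). The median log2 change over all genes was -0.22. Of the 2537 tract-linked genes tested, 5 were called higher and 689 lower, with a median of -2.82. The rule of this set used control libraries 3 to 5, which are part of the contrast, so falls in it were largely built in. It set apart genes raised in those libraries and not genes lowered in them. Outside this set, 1811 genes were called higher (12.3% of 14698) and 1782 lower (12.1%), with a median of -0.06. With 2-fold in place of 4-fold as the rule for the set, 1765 genes outside it were called higher and 1065 lower.

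The number of calls depended on which libraries were fitted. Leaving libraries out changes both the tract RNA and the number of libraries, and the part of each was not tested. Without the 8 tract-rich libraries, 1580 genes were called higher (9.58% of 16494) and 1343 lower (8.14%), and the median log2 change was 0.00. Without control libraries 3 to 5, 465 were called higher (2.47% of 18798) and 455 lower (2.42%). A total of 1075 genes were called higher (6.7% of the 16040 tested in both) and 627 lower (3.91%) in the same direction both with all 20 libraries and without the 8 tract-rich ones. These are referred to as called in both fits, a rule chosen after the data had been seen. Of them, 393 higher and 244 lower genes were called in the fit without control libraries 3 to 5 as well. Of the 4287 genes called with all libraries, 92 changed sign without the tract-rich libraries, and 186 without control libraries 3 to 5, all of them genes that had been called lower. Leaving out Western library 3, 4 or 5 reduced the 4287 calls to 1570, 1756 and 1781, and leaving out control library 3 or 4 reduced them to 1874 and 2078. They were 4424 without control library 5 and 3387 without Western library 1, both tract-rich. Without control library 1, control library 2 or Western library 2 they were 5008, 5091 and 5055.

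**Figure D2:**
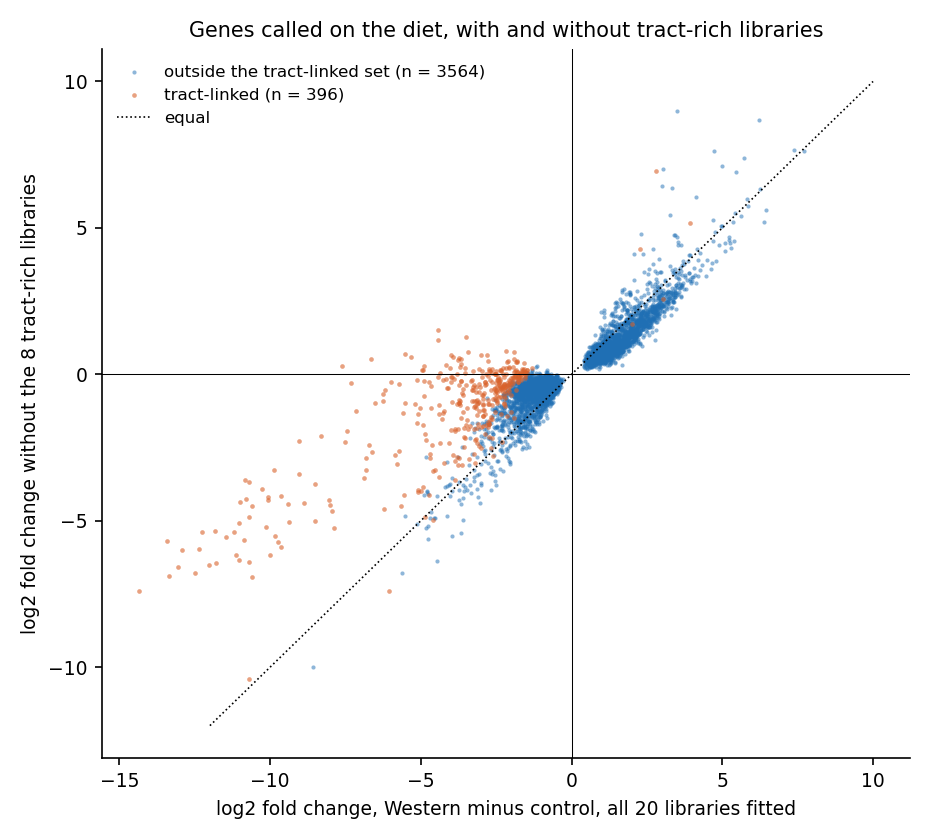
Log2 fold change (Western minus control diet) of genes called in the fit of 20 libraries, plotted against the value without the 8 tract-rich libraries (3564 genes outside the tract-linked set in blue, 396 tract-linked genes in orange; the dotted line marks equal values). The blue points follow the line on both sides of 0, while many tract-linked genes lie far to the left and closer to 0 on the vertical axis.

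The 10 largest rises and falls are given for genes outside the tract-linked set that averaged at least 5 CPM and did not overlap between the diets. The mean can pass through 1 diet alone, as for Tph2 and Il7r, which had 7 counts each over the 5 control libraries. Tph2 (ENSMUSG00000006764, chr10:115078641-115185022 of GRCm38), the rate-limiting enzyme of serotonin synthesis in neurons, was at 0.378, 0.238, 0.196, 0.388 and 0 CPM in control libraries 1 to 5 and at 11.1, 60.6, 70.6, 60 and 51.7 CPM in Western libraries 1 to 5. Every Western library lay far above every control library, and library 1 was the lowest of the Western group. The log2 change was 7.70 ± 0.56 (standard error, as in all values below; adjusted p = 8.1e-07) and 7.61 without the tract-rich libraries. Maoa, which breaks serotonin down, rose as well (1.83 ± 0.38, adjusted p = 0.004), Maob was tested and not called, and the other 8 genes of the serotonin list had too few counts to be tested.

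Ubd, a ubiquitin-like modifier induced by cytokines, rose from 3.59 ± 2.52 CPM (mean ± SD, n = 5) to 135 ± 63.3 CPM, a log2 change of 5.23 ± 0.67. Il7r, the interleukin-7 receptor, rose from 0.238 ± 0.309 to 10.3 ± 9.89 CPM (5.38 ± 0.89), with Western library 3 at 27.7 CPM and the other Western libraries between 3 and 7.48 CPM. Lctl, a lactase-like protein, rose from 5.13 ± 5.6 to 130 ± 67.6 CPM (4.66 ± 0.88). Trdn, which encodes triadin of the muscle calcium-release complex, rose from 0.281 ± 0.101 to 22.8 ± 8.8 CPM (6.24 ± 0.84). Western library 4 had the most Trdn (32.4 CPM) and the most summed skeletal muscle markers (475 CPM), while Western library 5 had 30.2 CPM of Trdn and 39.2 CPM of these 10 markers. The part of muscle RNA in the rise of Trdn was not tested. Mmp12, Il1rn, Ccl2, Ccl7 and Adam8 completed the 10 largest rises. All 10 were called in each of the 3 fits and without any 1 of the 10 libraries.

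Among the falls, by the same rule, the largest in Cyp2d26 and Mycl were -3.72 and -3.59. Mycl, a member of the Myc family of transcription factors, was at 43.1, 35.8, 20.8, 6.01 and 5.89 CPM in control libraries 1 to 5 and between 0.864 and 4.22 CPM in the Western libraries, without overlap. Its log2 change was -3.59 ± 0.69 (adjusted p = 0.0022), and -4.97 without the tract-rich libraries. Sema4g, a semaphorin, fell from 12.7 ± 8.92 to 1.13 ± 0.713 CPM (-3.46 ± 0.80), and Shisa2 from 9.07 ± 5.72 to 1.23 ± 0.902 CPM (-2.87 ± 0.52). Hotairm1, a long non-coding RNA of the HoxA cluster, fell from 26.9 ± 17 to 4.07 ± 1.24 CPM (-2.72 ± 0.49). These 4 were called in all 3 fits. Ctf1 (cardiotrophin 1), C8g, Dusp28, Osbpl6 and the mitochondrial carrier Slc25a29 fell by 2.83 to 3.07 on the log2 scale. Their calls were lost without control libraries 3 to 5, where the change was -2.30 for C8g, -2.02 for Ctf1, -1.88 for Osbpl6, -1.69 for Dusp28 and -1.61 for Slc25a29. All 5 averaged more in control libraries 3 to 5 than in 1 and 2, short of the 4-fold rule. The means were 67.5 against 21.5 CPM for Dusp28, 40.85 against 12.3 for Slc25a29 and 13.5 against 4.72 for Ctf1. They were 12.3 against 4.62 for Osbpl6 and 19.4 against 9.5 for C8g. Cyp2d26, a cytochrome P450 abundant in liver, was called with all libraries (-3.72 ± 1.29, adjusted p = 0.044) and lost the call when any of 8 of the 10 libraries was left out (adjusted p 0.056 to 0.11; it was kept without Western library 2 or control library 2). Cyp2d26 was at 21, 5.12, 4.51, 21.9 and 17.9 CPM in control libraries 1 to 5, beside liver markers of 4781, 3063, 2334, 2979 and 70.1 CPM, and the part of liver RNA in its fall was not tested.

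Macrophage genes rose together. List counts from here on stand beside the shares of all genes tested. With all libraries these were 10.5% called higher and 14.3% lower, in both fits 6.7% and 3.91%, and without the tract-rich libraries 9.58% and 8.14%. Without control libraries 3 to 5 they were 2.47% and 2.42%. Of 20 general macrophage genes tested, 16 were called higher and 0 lower, the same 16 in both fits and 12 in all 3. Their median log2 change was 2.35 with all libraries and 2.03 without the tract-rich ones. Adgre1, which encodes the macrophage surface protein F4/80, was at 8.31, 9.05, 3.14, 2.13 and 2.95 CPM in control libraries 1 to 5 and at 68.9, 42.9, 201, 66.8 and 59.5 CPM in Western libraries 1 to 5. Western library 3 stood far above the other Western libraries, and the diets did not overlap. Adgre1 changed by 4.09 ± 0.70 on the log2 scale (adjusted p = 0.00098), and 3.30 without control libraries 3 to 5, where the call was lost (adjusted p = 0.06). Mpeg1, a pore-forming protein of phagocytes, rose by 2.69 ± 0.33 and Ctss, the antigen-processing protease cathepsin S, by 3.11 ± 0.41, both in all 3 fits.

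Genes of lipid-associated macrophages, the cells that surround dying adipocytes, gave 11 of 19 called higher and 0 lower, with 11 in both fits and a median of 1.52. Trem2, the lipid-sensing receptor of these cells, was at 4.16, 12.4, 6.27, 10.1 and 4.82 CPM in control libraries 1 to 5 and at 35.6, 131, 153, 77.6 and 65 CPM in Western libraries 1 to 5. The highest control library lay below the lowest Western one. The log2 change was 3.61 ± 0.45 (adjusted p = 0.00013) and 3.64 without the tract-rich libraries. Itgax, which encodes CD11c, rose by 3.90 ± 0.57, Mmp12, macrophage elastase, by 5.22 ± 0.83 and Ctsl, the lysosomal cathepsin L, by 1.06 ± 0.16. Cd9, a tetraspanin used as a marker of these cells, was at 613 CPM in control library 4 and between 42.8 and 96.5 CPM in the other 9 libraries. It was tract-linked and not called (-1.47 ± 0.81, adjusted p = 0.18; 0.35 without the tract-rich libraries). Of 15 resident macrophage genes, 10 were called higher, 6 in both fits and 0 without control libraries 3 to 5. Mrc1, the mannose receptor, rose by 2.65 ± 0.45 and Folr2, folate receptor beta, by 2.96 ± 0.65.

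Chemokines and their receptors gave 15 of 27 called higher, the same 15 in both fits and 8 in all 3, with a median of 1.90. Ccl2 (ENSMUSG00000035385), the main monocyte attractant, was at 1.89, 3.21, 1.57, 3.69 and 0 CPM in control libraries 1 to 5 and at 52.9, 130, 76.1, 131 and 118 CPM in Western libraries 1 to 5. No control library came near the Western range. The log2 change was 5.61 ± 0.77 (adjusted p = 0.00023) and 5.42 without the tract-rich libraries. Ccl7, a neighbour and relative of Ccl2, rose by 4.99 ± 0.66 and Cxcl10, an interferon-induced attractant of T cells, by 3.55 ± 0.47.

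Among inflammatory cytokines and their feedback genes, 9 of 16 were called higher and 7 in both fits. Socs3, the feedback inhibitor of cytokine receptors, rose from 3.93 ± 2.51 to 46.1 ± 13.1 CPM (3.55 ± 0.44), Casp1, the inflammasome protease, by 3.21 ± 0.47, Lif, a cytokine of the interleukin-6 family, by 4.20 ± 0.63 and Il1rn, the interleukin-1 receptor antagonist, by 5.10 ± 0.82. Tnf and Il6 had too few counts to be tested. Saa3, a serum amyloid A made in fat, was between 3.72 and 5 CPM in the control libraries and at 25.6, 148, 77.7, 78.5 and 62 CPM in Western libraries 1 to 5, a log2 change of 4.14 ± 0.51. S100a8 and Csf3r, genes of neutrophils, rose by 3.16 ± 0.52 and 2.12 ± 0.35, and 5 of the 14 acute phase and neutrophil genes tested were called higher, all 5 in all 3 fits, and 1 lower. The latter was Saa2, an acute phase protein related to Saa3 (-3.06 ± 1.05, adjusted p = 0.043; -3.40 without the tract-rich libraries, adjusted p = 0.0093). Its call with all libraries was lost without any of 8 libraries (all but Western library 2 and control library 5; adjusted p 0.06 to 0.11).

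Antigen presentation and the complement system were higher as well. Of 10 class II genes, 7 were called higher and 6 in both fits. Ciita, the master activator of class II genes, rose by 3.42 ± 0.55 and H2-DMb1, a chaperone of peptide loading, by 1.94 ± 0.38. Of 20 complement genes, 14 were called higher and 1 lower, with 9 and 1 in both fits. Serping1, the C1 inhibitor, rose from 123 ± 50.1 to 698 ± 69.4 CPM (2.50 ± 0.32), C1qb, a recognition subunit, by 2.36 ± 0.33 and C3ar1, the C3a receptor, by 3.15 ± 0.45. The member called lower was Cfd, described with the adipokines. Interferon-stimulated genes gave 7 of 24 called higher, 6 in both fits and 0 without control libraries 3 to 5, among them Ifit1 (2.27 ± 0.43) and Oas1a (1.93 ± 0.42). Of 18 T, B and NK cell genes, 9 were called higher and 3 in both fits, Nkg7 (2.82 ± 0.44) and the T cell kinase Lck (1.98 ± 0.37) among them. Lck stood at 16.1 CPM in Western library 1 and between 4.42 and 7.04 CPM in Western libraries 2 to 5. Of 12 dendritic and mast cell genes, 7 were called higher in both fits, including Cd209a (2.84 ± 0.45) and the mast cell proteases Cpa3 (3.54 ± 0.57) and Tpsb2 (2.62 ± 0.44).

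**Figure D3:**
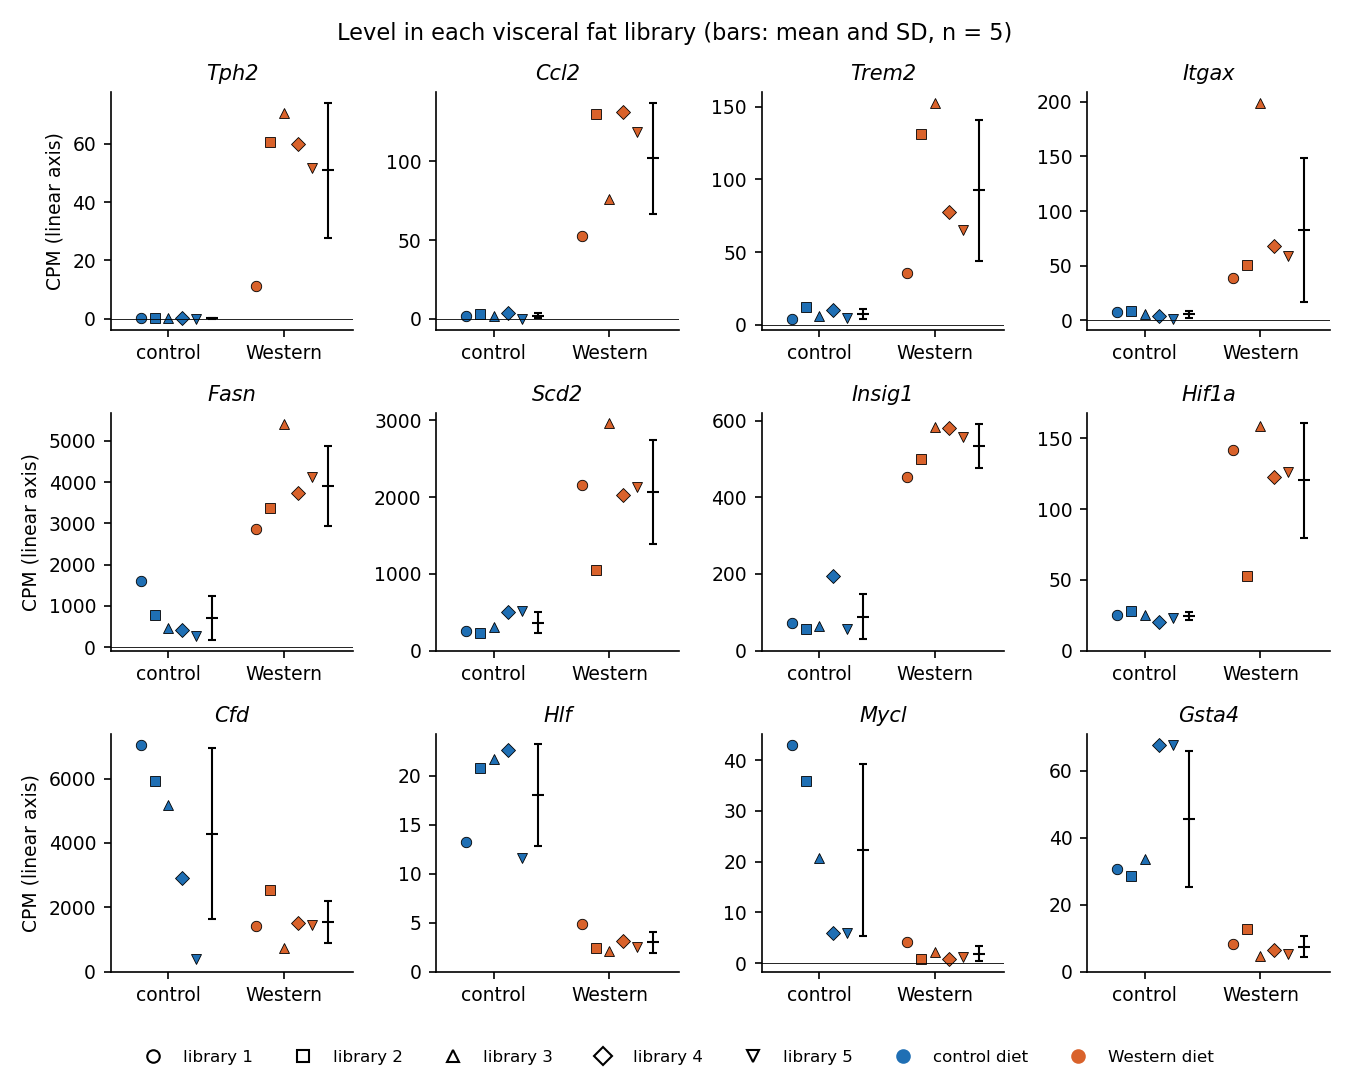
TMM-scaled CPM (linear axes) of 12 genes in each visceral fat library, control diet in blue and Western diet in orange, with the library number as the marker shape and bars for the mean and SD (n = 5). Tph2, Ccl2, Trem2, Itgax, Fasn, Scd2, Insig1 and Hif1a are higher in all 5 Western libraries than in any control library, Hlf, Mycl and Gsta4 are lower in all 5, and Cfd overlaps through control library 5 (408 CPM).

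Genes that make fatty acids differed by step. Of 19 tested, 5 were called higher and 1 lower, with 3 and 1 in both fits, and the median log2 change was 0.47. Fasn, fatty acid synthase, was at 1601, 786, 463, 412 and 276 CPM in control libraries 1 to 5 and at 2861, 3374, 5414, 3732 and 4122 CPM in Western libraries 1 to 5. The diets did not overlap, and the control level was lowest in the libraries with the least adipocyte RNA. The log2 change was 2.46 ± 0.51 (adjusted p = 0.0038), 1.79 without the tract-rich libraries (adjusted p = 0.014) and 1.67 without control libraries 3 to 5 (adjusted p = 0.14).

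Scd2, a stearoyl-CoA desaturase, was at 253, 231, 312, 509 and 521 CPM in control libraries 1 to 5 and at 2153, 1049, 2957, 2024 and 2131 CPM in Western libraries 1 to 5. Here the control libraries with tract RNA were the highest of their group, and the Western libraries still exceeded them all (2.50 ± 0.34, adjusted p = 0.00022; 3.05 without control libraries 3 to 5). Acss2, which makes acetyl-CoA from acetate, rose by 2.95 ± 0.42 and was called in all 3 fits. Scd1, the main desaturase of fat, was at 10710, 10470, 6412, 2649 and 492 CPM in control libraries 1 to 5 and between 10250 and 19420 CPM in the Western libraries. Its groups overlapped and it was not called (1.25 ± 0.56, adjusted p = 0.1). Acly, ATP citrate lyase, was not called either (0.81 ± 0.42, adjusted p = 0.15; 1.77 without the tract-rich libraries, adjusted p = 0.051), with 149 to 523 CPM against 458 to 894 CPM. Pgd, an NADPH-producing enzyme of the pentose phosphate pathway, was between 84.9 and 343 CPM in the control libraries and between 506 and 724 CPM in the Western libraries. It was called with all libraries and not without the tract-rich ones (1.01, adjusted p = 0.065).

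In the sterol pathway the calls differed with the libraries fitted. Of 20 genes of cholesterol synthesis, 7 belonged to the tract-linked set. With all libraries 6 were called higher and 1 lower, with a median of 0.20. Without the tract-rich libraries 16 were called higher and 0 lower, with a median of 1.23, and without control libraries 3 to 5 none was called, with a median of 1.17. Called higher in both fits were 5 genes, with Mvk, mevalonate kinase, Sc5d, a late step (1.53 ± 0.35) and Hmgcs1, the synthase that feeds the mevalonate pathway (1.15 ± 0.29), leading them by p. Mvk was between 16.1 and 36.5 CPM in the control libraries and between 42.2 and 80.4 CPM in the Western libraries. Hmgcs1 was at 109, 89.7, 77.4, 139 and 56.9 CPM in control libraries 1 to 5 and at 213, 143, 295, 198 and 197 CPM in Western libraries 1 to 5, with 143 CPM just above the control maximum of 139 CPM.

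Sqle, squalene epoxidase, differed in sign between the fits. It was at 10.9 and 7.62 CPM in control libraries 1 and 2, at 41.2, 109 and 76.4 CPM in the tract-bearing control libraries 3 to 5, and between 24.4 and 37.7 CPM in the Western libraries. All 5 Western libraries thus lay above control libraries 1 and 2 and below control libraries 3 to 5. Its change was -0.55 ± 0.73 with all libraries (adjusted p = 0.57), and 1.83 without the tract-rich ones (adjusted p = 0.017). Fdft1, squalene synthase, was called lower with all libraries (-1.53 ± 0.46) and not without the tract-rich ones (-0.40, adjusted p = 0.24). Its call was also lost when Western library 3, 4 or 5 or control library 4 or 5 was left out (adjusted p 0.062 to 0.084).

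Among genes that sense and import sterol, Insig1 (ENSMUSG00000045294, chr5:28071363-28078662 of GRCm38), a target and inhibitor of SREBP processing, was at 73.5, 55.4, 63.5, 194 and 56.7 CPM in control libraries 1 to 5 and at 452, 500, 585, 580 and 556 CPM in Western libraries 1 to 5. Control library 4 stood out in its group and was still below every Western library. The rise of Insig1 was 2.59 ± 0.37 in log2 (adjusted p = 0.00031), and 3.10 without the tract-rich libraries. Lpcat3, a lysophospholipid acyltransferase, rose by 0.94 ± 0.25, and by 1.53 without control libraries 3 to 5, with control library 5 at 141 CPM against 46.8 to 63.7 CPM in the other control libraries. Abcg1, a sterol exporter induced by LXR, rose by 1.92 ± 0.48 and was not called without the tract-rich libraries (1.25, adjusted p = 0.092). The list as a whole had 6 of 14 called higher, 3 in both fits.

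The proximal promoters of Hmgcs1 and Insig1 are shown because both rose and are described as SREBP targets. SREBPs bind sterol elements and E-boxes. RefSeq promoters of build GRCm38.p6, from 250 bases before to 50 after each start, were searched on both strands for the sterol element TCACNCCAC and the E-box CACGTG, which do not contain each other, and the 250 bases before the start are printed 5′ to 3′ on the gene's strand with the match in capitals. Hmgcs1 lies at chr13:119690101-119690350 on the plus strand, and Insig1 at chr5:28071162-28071411 on the plus strand.
Hmgcs1: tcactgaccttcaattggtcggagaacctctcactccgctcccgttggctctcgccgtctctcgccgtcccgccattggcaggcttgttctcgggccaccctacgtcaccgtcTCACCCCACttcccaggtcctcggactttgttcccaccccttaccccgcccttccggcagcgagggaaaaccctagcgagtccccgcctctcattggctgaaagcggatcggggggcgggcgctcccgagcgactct
Insig1: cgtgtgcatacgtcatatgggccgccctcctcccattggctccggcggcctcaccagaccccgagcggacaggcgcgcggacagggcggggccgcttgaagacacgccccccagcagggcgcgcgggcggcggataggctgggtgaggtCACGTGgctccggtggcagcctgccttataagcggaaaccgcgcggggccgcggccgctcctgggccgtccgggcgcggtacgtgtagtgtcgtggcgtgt
Of all 32851 promoters, 1.24% held the sterol element and 7.15% the E-box. In the cholesterol list, 15 genes matched the table with 18 promoters, of which 1 held the sterol element (Hmgcs1) and 3 the E-box (Dhcr7, Hsd17b7 and Sc5d). In the sterol uptake list, 9 genes matched with 12 promoters, of which 0 held the sterol element and 4 the E-box. A match is a string of letters and not a measured binding site.

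With all libraries, adipocyte genes and adipokines did not move as a group. Of 23 genes of fatty acid uptake and adipocyte identity, 1 was called higher and 0 lower in that fit. Without the tract-rich libraries 1 was called higher and 7 lower, beside 9.58% and 8.14% of all genes. None was called in both fits, and the median log2 change went from 0.27 to -0.42. Of 17 adipokine genes, 3 were called higher and 2 lower with all libraries, and 5 and 4 without the tract-rich ones. Pparg, the master regulator of adipocytes, was at 259, 294, 152, 75.6 and 4.96 CPM in control libraries 1 to 5 and between 152 and 217 CPM in the Western libraries. Control libraries 1 and 2 lay above the Western range and control libraries 3 to 5 below it, library 3 by a small margin. It was not called (0.27 ± 0.62, adjusted p = 0.76; -0.49 without the tract-rich libraries). Adipoq, adiponectin, was likewise not called (0.04 ± 0.57, adjusted p = 0.97; -0.65 without the tract-rich libraries). Slc2a4, the insulin-responsive glucose transporter, was at 280 and 242 CPM in control libraries 1 and 2 and between 103 and 155 CPM in the Western libraries. It was not called with all libraries (-0.24 ± 0.57) and was lower without the tract-rich ones (-1.11, adjusted p = 0.0056).

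Lep, leptin, was at 1751, 1888, 757, 456 and 15.5 CPM in control libraries 1 to 5 and at 3140, 2986, 3318, 3526 and 3624 CPM in Western libraries 1 to 5. The groups did not overlap, and the gene was not called (1.77 ± 0.75, adjusted p = 0.085). Without the tract-rich libraries it was called (0.88, adjusted p = 0.013). Cfd, adipsin, which activates the alternative complement pathway, was at 7052, 5914, 5187, 2901 and 408 CPM in control libraries 1 to 5 and at 1429, 2546, 725, 1517 and 1440 CPM in Western libraries 1 to 5. Control libraries 1 to 4 lay above every Western library and control library 5 below. The log2 change was -1.49 ± 0.51 (adjusted p = 0.042), -2.06 without the tract-rich libraries (adjusted p = 0.0027) and -2.12 without control libraries 3 to 5 (adjusted p = 0.0074).

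Nrg4, a growth factor secreted by fat, was lower in the same way, at 164, 145, 54.9, 33.9 and 4.02 CPM in control libraries 1 to 5 against 20.4 to 31.2 CPM (-1.64 ± 0.57, adjusted p = 0.045; -2.57 without the tract-rich libraries). The calls of Cfd and Nrg4 with all libraries were weak, since leaving out any of 8 libraries ended that of Cfd (all but Western library 2 and control library 5; adjusted p up to 0.12) and any of 9 that of Nrg4 (all but control library 5; up to 0.12). Fst, the activin antagonist follistatin, rose by 3.24 ± 0.64. Sfrp5, a Wnt antagonist of fat, was between 1.34 and 260 CPM in the control libraries and between 362 and 704 CPM in the Western libraries, without overlap and without a call (2.11 ± 0.96, adjusted p = 0.11).

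Mest, an imprinted gene tied to fat expansion, was at 114, 283, 135, 63 and 3.62 CPM in control libraries 1 to 5 and between 279 and 592 CPM in the Western libraries, overlapping in control library 2 (2.01 ± 0.72, adjusted p = 0.048). Leaving out any of 7 libraries (Western 1, 3, 4 or 5, control 1, 3 or 4) ended its call, with adjusted p up to 0.11. Cdkn1c, an imprinted inhibitor of the cell cycle, fell by 1.69 ± 0.42, and by 2.47 without control libraries 3 to 5. Among lipid droplet and triglyceride genes, Plin2, a coat protein of lipid droplets, rose by 1.80 ± 0.51 (lost without Western library 3 or control library 3 or 4, adjusted p 0.056 to 0.061), Hilpda, an inhibitor of lipolysis, by 1.07 ± 0.21 and Mogat2, a monoacylglycerol acyltransferase, by 3.15 ± 0.78. Of 15 triglyceride genes, 2 were called higher and 2 lower with all libraries, 2 and 7 without the tract-rich ones, and 1 and 1 in both fits. Of 16 lipolysis genes, 1 was called higher with all libraries, and 1 higher and 6 lower without the tract-rich ones. Of 11 lipid droplet genes, 2 were called higher and 1 lower with all libraries, and 2 and 3 without the tract-rich ones. Gpat4, an acyltransferase of glycerol phosphate, was between 88.4 and 588 CPM in the control libraries and between 88.8 and 167 CPM in the Western libraries. It was called lower in both fits, and with all libraries the call was lost without any of Western libraries 2 to 5 or control library 3 or 5 (adjusted p 0.053 to 0.18). Fitm1, a lipid droplet protein, fell by 2.21 ± 0.51 and was not called without the tract-rich libraries (-1.31, adjusted p = 0.18).

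Few members of the thermogenic and mitochondrial lists were called with all libraries. Of all genes tested, 10.5% were called higher and 14.3% lower with all libraries, and 8.14% lower without the tract-rich ones. Ucp1 had too few counts to be tested. Otop1, a proton channel linked to thermogenic fat, was the member called higher of 13 thermogenic genes tested, from 0.714 ± 0.737 to 10.8 ± 4.18 CPM (3.90 ± 0.68). Of 28 nuclear genes of oxidative phosphorylation, 4 were called lower with all libraries and none in both fits. Cox4i1, a subunit of complex IV, was lower with all libraries (-0.98 ± 0.28) and not without the tract-rich ones (-0.77, adjusted p = 0.11). Control library 3 held 1322 CPM of it, and without that library or Western library 1, 3, 4 or 5 the call was lost (adjusted p 0.051 to 0.08). Of 21 genes of branched-chain amino acid breakdown, 2 were called lower with all libraries, 10 without the tract-rich ones and 1 in both, and the median went from -0.33 to -0.78. That gene, Hsd17b10, fell by 0.86 ± 0.31 (adjusted p = 0.047), which was lost when any of 8 libraries was left out (all but Western library 2 and control library 5; adjusted p up to 0.14). Acot2, a mitochondrial acyl-CoA thioesterase, fell by 1.11 ± 0.24 and was called in all 3 fits.

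Matrix genes rose broadly. Of 27 collagen and crosslinking genes, 21 were called higher and 0 lower, 13 in both fits and 2 in all 3, with a median log2 change of 1.88 with all libraries and 1.16 without the tract-rich ones. Col1a1, the main chain of type I collagen, was at 186, 132, 71.7, 88.8 and 25.9 CPM in control libraries 1 to 5 and at 391, 431, 865, 643 and 598 CPM in Western libraries 1 to 5. The groups did not overlap, and Western library 3 was the highest. The rise of Col1a1 was 2.54 ± 0.53 in log2 (adjusted p = 0.0039), 1.99 without the tract-rich libraries (adjusted p = 0.014) and 1.85 without control libraries 3 to 5 (adjusted p = 0.12).

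Col12a1, a fibril-associated collagen, rose by 2.84 ± 0.51 and was called in all 3 fits, Col6a1 rose by 2.69 ± 0.52, and Col18a1, the source of endostatin, by 1.42 ± 0.28. Col6a3, whose end fragment is endotrophin, was called with all libraries (2.60 ± 0.69), but not without the tract-rich ones (1.82, adjusted p = 0.098) nor without Western library 3 (2.21, adjusted p = 0.058), where it reached 408 CPM against 89.6 to 188 CPM in the other Western libraries. Matrix turnover gave 13 of 21 called higher and 11 in both fits, with Adam8 (4.71 ± 0.67), a metalloprotease of leukocytes, and Timp2 (1.81 ± 0.37), an inhibitor of metalloproteases. Matrix glycoproteins gave 15 of 25 called higher and 11 in both fits, among them Fn1, fibronectin (3.22 ± 0.64), Vcan, versican (2.90 ± 0.52), and Lum, lumican (3.18 ± 0.70). None of this list was called without control libraries 3 to 5, where the changes were 2.44 for Fn1 (adjusted p = 0.13), 2.57 for Vcan (adjusted p = 0.052) and 2.34 for Lum (adjusted p = 0.16). Fn1 reached 1279 CPM in Western library 3 and lay between 372 and 479 CPM in the other Western libraries.

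The calls of vascular genes differed with the libraries fitted. Of 22 endothelial genes, 1 was called higher and 0 lower with all libraries, with a median of 0.15. Without the tract-rich ones 1 was called higher and 6 lower, beside 8.14% of all genes lower, with a median of -0.71. The sum of 8 endothelial markers was 2091, 1938, 872, 422 and 89.6 CPM in control libraries 1 to 5. It was between 833 and 1560 CPM in the Western libraries. The exact permutation p was 0.84 with all 10 libraries. Without control libraries 3 to 5 it was 0.0476, the smallest that 2 against 5 can give. Of 17 angiogenesis and hypoxia genes, 1 was called higher and 3 lower with all libraries, and 1 and 2 in both fits. Hif1a, the oxygen-regulated transcription factor and the member called higher, was between 20.2 and 28.3 CPM in the control libraries and at 142, 52.5, 158, 123 and 126 CPM in Western libraries 1 to 5, where library 2 was the lowest (2.30 ± 0.31, adjusted p = 0.00022; called in all 3 fits). Hif3a, a relative of Hif1a, fell by 2.04 ± 0.62 (adjusted p = 0.028), and by 2.99 without the tract-rich libraries, and was called in all 3 fits. Its call with all libraries was lost without Western library 3, 4 or 5 or control library 1 or 2 (adjusted p 0.055 to 0.084). Pgf, placental growth factor, was called lower in both fits and belonged to the tract-linked set. It fell by 3.60 ± 0.98 with all libraries and by 1.30 without the tract-rich ones. It was at 38.1 to 87.8 CPM in control libraries 3 to 5 and at 4.72 and 9.77 CPM in control libraries 1 and 2. Without Western library 3 or 5 or control library 3 its call was lost (adjusted p 0.052 to 0.061). Icam1, an adhesion molecule of endothelium and progenitors, rose by 1.55 ± 0.32. Igfbp6, a binding protein of insulin-like growth factors found in mesothelium, rose by 1.32 ± 0.33 and was not called without the tract-rich libraries (1.30, adjusted p = 0.055). In the cell cycle list, 3 of 24 genes were called higher in both fits, 11 without the tract-rich libraries and 7 without control libraries 3 to 5. Among the genes called in both fits were the replication factors Mcm6 (1.14 ± 0.21) and Mcm3 (0.97 ± 0.24). Of that list, 12 genes were tract-linked, and the median went from -0.39 with all libraries to 1.23 without the tract-rich ones. Lysosomal genes gave 14 of 28 called higher and 11 in both fits, with Gusb, beta-glucuronidase, up by 1.80 ± 0.25.

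**Figure D4:**
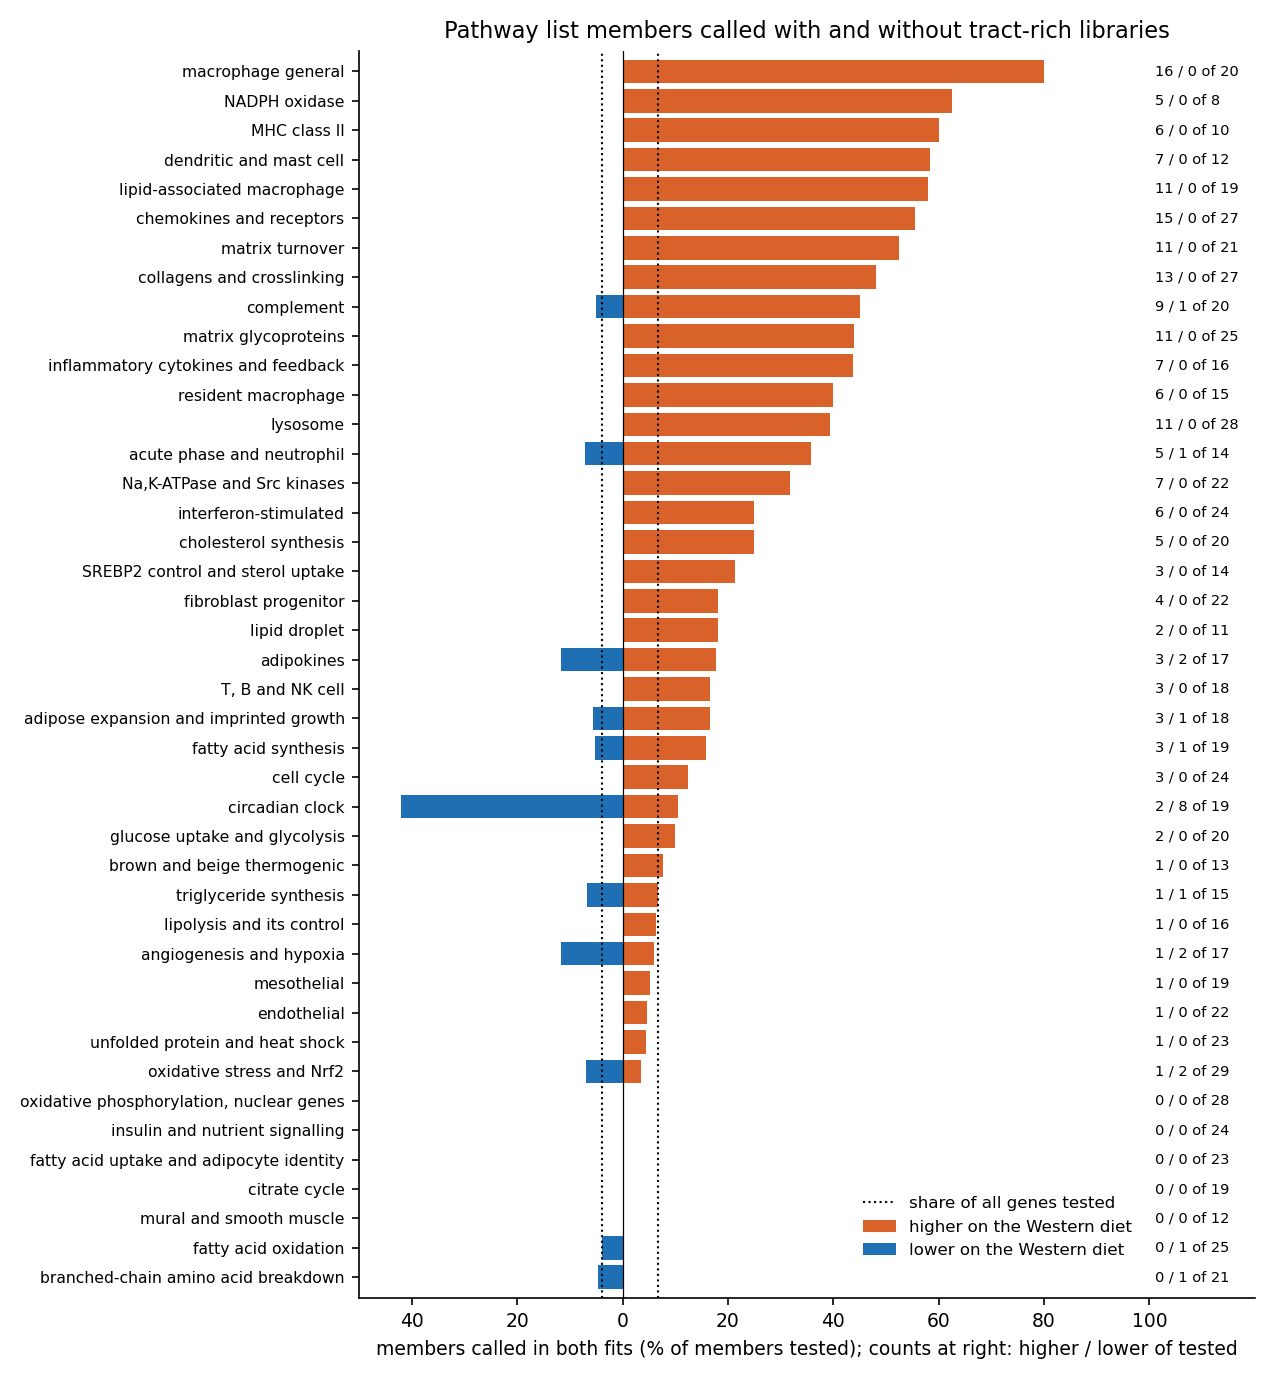
Share of the tested members of 42 pathway lists (those with at least 8 tested) that were called in both fits, higher to the right in orange and lower to the left in blue, with the counts at the right margin. Dotted lines mark the share of all genes, 6.7% higher and 3.91% lower. General macrophage genes reach 16 of 20 higher, and the circadian clock has 8 of 19 lower.

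Of the 43 lists, the clock genes had the most members called lower. The clock runs on a loop in which Arntl and Clock activate Per and Cry genes through E-boxes, Nr1d1 represses Arntl, and Hlf and its relatives with Nfil3 act on D-boxes. Of 19 genes, 3 were called higher and 8 lower with all libraries, and 2 and 8 in both fits, beside 6.7% and 3.91% of all genes. Hlf was at 13.2, 20.8, 21.8, 22.7 and 11.7 CPM in control libraries 1 to 5 and at 4.83, 2.38, 2.09, 3.17 and 2.54 CPM in Western libraries 1 to 5. Each Western library was below each control library (-2.58 ± 0.38, adjusted p = 0.00036; -2.74 without the tract-rich libraries).

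Cry1, a repressor of the loop, was between 9.7 and 29.1 CPM in the control libraries and between 5.13 and 8.57 CPM in the Western libraries (-1.42 ± 0.33, adjusted p = 0.0072). Nfil3, the repressor that opposes Hlf, rose by 1.54 ± 0.26 and Arntl by 1.83 ± 0.47, with Western library 3 at 20.9 CPM and the other Western libraries between 4.13 and 12.3 CPM. Per1 was at 75, 92.3, 67.2, 38.2 and 82.9 CPM in control libraries 1 to 5 and between 24.7 and 56.4 CPM in the Western libraries (-0.71 ± 0.30, adjusted p = 0.089, called without the tract-rich libraries at -1.03). Nr1d1 was not called (0.84 ± 0.40, adjusted p = 0.12). The labels give no hour of tissue collection, so the part of sampling time in these values was not tested. The Cry1 promoter is shown for its E-box, which begins 60 bases before the start, at chr10:85185055-85185304 of GRCm38.p6 on the minus strand, printed as above.
Cry1: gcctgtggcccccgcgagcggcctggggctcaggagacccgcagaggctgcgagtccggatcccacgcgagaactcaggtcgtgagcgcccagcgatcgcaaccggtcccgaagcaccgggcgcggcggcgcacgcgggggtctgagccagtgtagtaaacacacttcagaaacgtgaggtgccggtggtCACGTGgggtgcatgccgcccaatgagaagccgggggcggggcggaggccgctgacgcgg
In the clock list, 16 genes matched the table with 21 promoters. Of these, 6 held the E-box (of Bhlhe41, Ciart, Cry1, Per1 and Tef) and 2 the D-box TTATGNAA (of Per1 and Per3), beside 7.15% and 3.38% of all promoters.

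The series concerns the Na,K-ATPase, Src and oxidants, so their lists are described next. Of 22 genes of the pump, its regulators and the Src family, 8 were called higher and 1 lower, with 7 and 0 in both fits. With all libraries the median log2 change of the list was 0.39, and it was 0.53 without the tract-rich ones.

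Src was at 23.4, 26.4, 36.6, 27.5 and 44.2 CPM in control libraries 1 to 5 and at 21.2, 17.6, 18.7, 25.4 and 21.5 CPM in Western libraries 1 to 5, overlapping. Its call with all libraries (-0.60 ± 0.19, adjusted p = 0.033) was lost without the tract-rich ones (-0.27, adjusted p = 0.42) and when Western library 1, 2, 3 or 5 or control library 3 or 5 was left out (adjusted p 0.05 to 0.1). The family members of blood cells rose: Fgr by 3.04 ± 0.37 and Lck as given above. Both were called in all 3 fits, and their rise stood beside that of the macrophage markers, whose part in it was not tested. Of 8 NADPH oxidase genes tested, 6 were called higher and 5 in both fits. Rac2 rose by 2.44 ± 0.28, Ncf1 by 1.82 ± 0.28 and Ncf4 by 2.81 ± 0.45, all regulatory subunits of the phagocyte enzyme, which macrophages and neutrophils carry.

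Oxidative stress genes did not share a direction. Of 29, 3 were called higher and 6 lower, beside 10.5% and 14.3% of all genes. In both fits they were 1 and 2, beside 6.7% and 3.91% of all genes, so the counts lay near these shares. Hmox1, the haem-degrading enzyme, rose by 1.29 ± 0.33. Gsta4, which detoxifies lipid aldehydes, was at 30.6, 28.7, 33.5, 67.7 and 67.8 CPM in control libraries 1 to 5 and at 8.33, 12.8, 4.73, 6.34 and 5.39 CPM in Western libraries 1 to 5, with no overlap (-2.60 ± 0.44, adjusted p = 0.00096; -2.03 without the tract-rich libraries). Gpx3, the secreted glutathione peroxidase, was at 1803, 1689, 3827, 496 and 1377 CPM in control libraries 1 to 5 and between 300.1 and 860 CPM in the Western libraries (-1.83 ± 0.45, adjusted p = 0.011). Atf3, a transcription factor of the stress response, rose by 3.33 ± 0.42. It was the gene called in both fits of 23 genes of the unfolded protein and heat shock list. In that list 2 were called higher and 6 lower with all libraries, and 3 and 1 without the tract-rich ones. Of its genes, 6 were tract-linked, and the median went from -0.70 with all libraries to 0.12 without the tract-rich ones.

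The tract-linked set is described by its 5 most abundant genes in control libraries 3 to 5. Gpx5, a glutathione peroxidase of the epididymis, was at 2972, 13850 and 6545 CPM in these libraries, at 146 and 13.5 CPM in control libraries 1 and 2, at 55.9 CPM in Western library 1 and at most 2.64 CPM in the other Western libraries. Clu, clusterin, was at 5543, 3767 and 4830 CPM in control libraries 3 to 5, at 177 and 115 CPM in control libraries 1 and 2 and between 204 and 323 CPM in the Western libraries, so that the Western libraries lay above the control libraries without much tract RNA. Its log2 change was -3.41 ± 1.29 with all libraries (adjusted p = 0.059) and 0.94 without the tract-rich ones (adjusted p = 0.1). Itm2b behaved in the same way (-1.24 ± 0.46 and 0.31, neither called). Adam7 and Lcn5, made by the epididymis, were called lower with all libraries (-10.15 ± 3.34 and -10.72 ± 3.48), calls lost without control library 3 or 4 or any of Western libraries 2 to 5 (adjusted p up to 0.097). Lcn5 had no count in Western libraries 2 to 5. Of the genes called in both fits, 109 were tract-linked, 3 higher and 106 lower.

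The same diet contrast in the 10 visceral libraries with NaKtide went the other way. With NaKtide, 228 genes were called higher on the Western diet (1.32%) and 602 lower (3.49%). Of the 1075 genes called higher in both fits without NaKtide, 1048 had the opposite sign with it, 429 were called in the opposite direction and 0 in the same one. Of the 627 called lower, 595 had the opposite sign, 106 were called opposite and 0 the same. The interaction, which tests the difference between the diet contrasts, was called for 5549 genes (32.2% of 17235), among them 1051 of the 1075 and 575 of the 627. These 1075 and 627 genes were chosen on the contrast without NaKtide, which is part of the interaction, so a high share was in part built in. Without the tract-rich libraries, 1025 and 556 of these genes had the opposite sign, and the interaction was called for 4740 genes.

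Tph2 was at 125 CPM on the control diet with NaKtide (range 79.3 to 148) and at 0.523 CPM on the Western diet with NaKtide (0.306 to 0.704), the mirror of its values without NaKtide. Trem2 was at 139 (104 to 194) and 14.4 (7.42 to 25.8) CPM, and Cfd at 1132 (1008 to 1317) and 7195 (3770 to 11660) CPM in the same order. Macrophage markers summed to between 2268 and 3251 CPM on the control diet with NaKtide and to between 519 and 1639 CPM on the Western diet with it. Liver markers, which were higher in control libraries 1 to 4, were between 103 and 787 CPM on the control diet with NaKtide and between 1743 and 4267 CPM on the Western diet with it. The files hold no measure of diet apart from expression, so the diet labels of these groups could not be checked against one, and what reverses the contrast was not tested. Not all genes reversed: Arntl had a log2 change of 1.17 with NaKtide (adjusted p = 0.17; interaction adjusted p = 0.45).

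**Figure D5:**
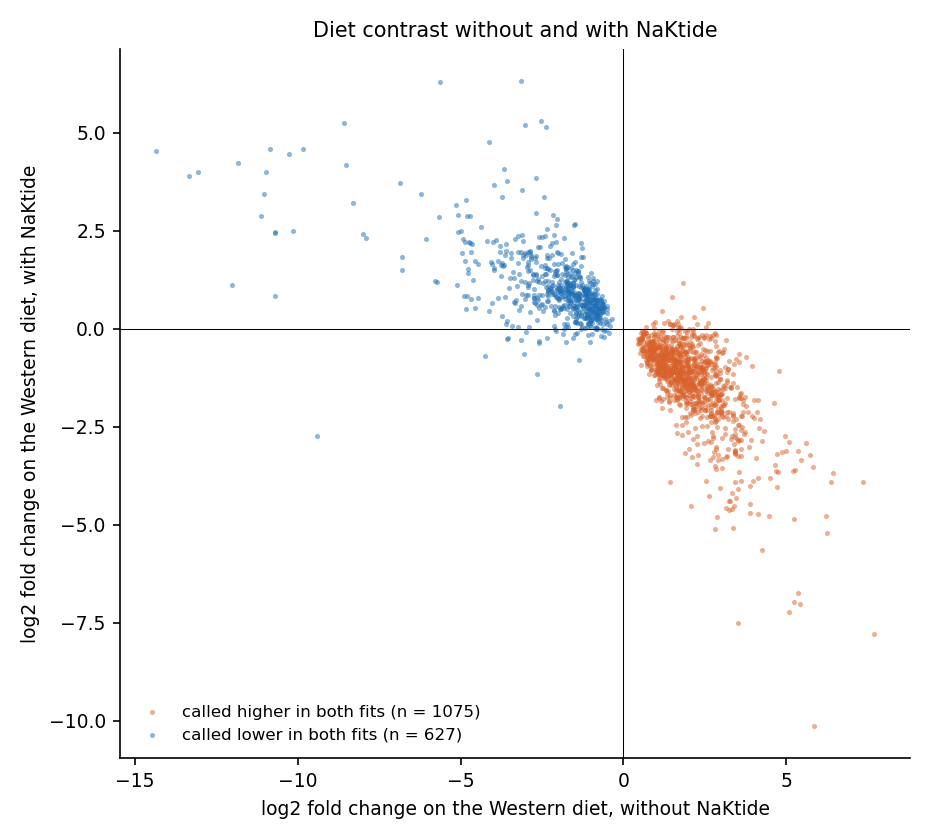
Log2 fold change on the Western diet without NaKtide (horizontal axis) against the same contrast with NaKtide (vertical axis) for the 1075 genes called higher (orange) and 627 called lower (blue) in both fits. Most orange points lie below 0 and most blue points above 0 on the vertical axis, 1048 and 595 of them.

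In subcutaneous fat the diet contrast without NaKtide mostly had the same sign. Of the genes called higher in both fits, 957 of 1074 measured there had the same sign and 85 were called in the same direction, and of those called lower 589 of 626 and 68. Over all genes in subcutaneous fat, 0.922% were called higher and 1.86% lower. Insig1 rose there by 2.40 (adjusted p = 0.0016), Scd2 by 2.73 (adjusted p = 0.00081), Ccl2 by 3.32 (adjusted p = 0.012) and Hif1a by 1.58 (adjusted p = 0.0034). For Trem2 the subcutaneous log2 change was -0.37, which was not called. The difference between the depots was called for 396 of 17788 genes (2.23%) with all libraries, Trem2 (3.96, adjusted p = 0.046) among them. Without the tract-rich libraries it was called for 1 gene, so no gene named here is called particular to visceral fat.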

How the data were processed

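Total RNA was extracted from flash-frozen tissue and made into libraries with a stranded mRNA kit, per the labels' protocols. The deposited table holds whole-number counts per gene, made by the authors with Trimmomatic 0.38 and HISAT2 2.1.0 on GRCm38, per the submitters' processing notes, which also name DESeq2 1.20.0. For the counting program, annotation and strand setting the sources used here give nothing, so overlapping and near-identical genes can share counts. The deposited normalised and FPKM tables were not used.

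The tests used edgeR 4.0.16 under R 4.3.3, with library sizes scaled by TMM and low genes removed by filterByExpr. A quasi-likelihood F test was fitted and its p-values were adjusted after Benjamini and Hochberg (threshold 0.05), over the 20 visceral libraries in 4 groups, and over 40 fat libraries for the difference between depots. Standard errors are the log2 change divided by the root of F. The biological coefficient of variation was 0.675. On simulated counts for this comparison (16971 genes tested), 8% of 100 genes changed 2-fold and 57% of 100 changed 4-fold were recovered, with 1 false call. Apart from these changes each simulated gene had the same mean in every library, so tract RNA was not uneven as in the data. The recovered share and the false calls therefore need not hold for the measured libraries. Depth limits counting precision only in part, at 5321350 to 9493820 counts per library.

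Named genes were the 10 largest rises and falls that were called, averaged at least 5 CPM, separated the diets completely, were not tract-linked and kept their sign without control libraries 3 to 5, together with up to 3 called members per direction of each pathway list (smallest p), the 5 most abundant tract-linked genes and a fixed set of adipokine, lipid, immune and clock genes. Dhcr7, Hsd17b7, Bhlhe41, Ciart, Tef, Per3, Maob and Prss2 are mentioned outside this rule, and some genes that the rule names are not reported here. The members and lists were chosen with earlier results of these data known. Alternatives were RLE scaling, no filter, DESeq2 1.42.0, limma 3.58.1 voom, robust dispersion, a replicate block, the 10 libraries alone, several treatments of tract RNA and each library left out in turn.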

Additional observations from a re-analysis of the deposited data

Results flagged for a closer look

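Several libraries stood apart from the other 4 of their group in the gap between the extreme library and its neighbour, set against Dixon's 95% critical value of 0.71 for 5 libraries, a test that chance meets in about 1 in 20 groups. Among summed markers, in TMM-scaled CPM, these were germ cell markers in control library 5 (13130) and Western library 1 (1605), vas deferens and accessory gland markers in control library 5 (1010), epididymis (96.8) and Leydig and Sertoli markers (32.5) in Western library 1, skeletal muscle markers in control library 1 (198) and Western library 4 (475), and nerve markers in control library 1 (995). Smooth muscle markers were highest in Western library 5 (799.7), and nerve markers lowest in Western library 1 (231). Insig1 was highest in control library 4 (194 CPM). Over the named genes, 34 of 240 such tests (14.2%) passed the critical value, and in 14 of them Western library 3 was the highest of its group.

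The diet contrast differed between mice without and with NaKtide by the interaction test of edgeR for 5549 genes. The difference (without minus with NaKtide, log2) was 15.49 for Tph2, 8.54 for Ccl2, 8.89 for Saa3, 6.87 for Trem2, 4.11 for Insig1, 3.82 for Lep and 2.67 for Fasn. It was -4.16 for Cfd.

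The diet contrast differed between visceral and subcutaneous fat for 396 genes, including Trem2 (3.96, visceral minus subcutaneous, log2), and for 1 gene without the tract-rich libraries.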

How the results depend on the processing

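Of the named genes called with all libraries, none changed direction in the 21 alternatives that could be fitted for it, and 53 were called in every one. Calls were lost for 45 without control libraries 3 to 5, 33 with tract RNA as a covariate and 9 without the tract-rich libraries. The count of called genes (4287) was 920 without control libraries 3 to 5, 1936 without the low-count filter, 857 with the tract covariate, 2114 in the 10 libraries alone, 6507 with voom and 1702 for calls shared with the fit without the tract-rich libraries, an alternative added after seeing the data. Leaving out 1 library gave 1570 to 5091. Outside the tract-linked set (3593) the counts were 907, 1724, 843, 1788 and 6028 in the order of the first 5 alternatives, and 1516 to 4578 with 1 library left out. The share of calls that were higher was 42.4%, and over the alternatives it ran from 36% with DESeq2 to 69.7% with the tract covariate, with 66.9% to 68.3% without Western library 3, 4 or 5. Outside the tract-linked set it was 50.4% and ran from 44.3% with DESeq2 to 70.2% with the covariate and 70.7% without Western library 3. RLE scaling gave 39.3% and moved the median of all genes from -0.22 to -0.27. Without the tract-rich libraries, the calls with NaKtide went from 830 to 2434 and the depot difference from 396 to 1. Without control libraries 3 to 5, 0 in place of 6 marker lists, the epididymis list among these 6, passed the exact test. Its smallest p is then 0.0476, so after adjustment a list could pass only if every list gave that value. The causes of these changes were not tested.

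Same-numbered libraries of the 2 diets had correlations of their deviations between -0.508 and 0.101, which gave no sign of a pairing by replicate number. The control libraries also differed in tract RNA, which could hide a pairing. For the depot difference, visceral and subcutaneous libraries were fitted as independent. Whether same-numbered ones came from the same mouse was not tested. With the replicate block, 2671 genes were called (2366 outside the tract-linked set), and the log2 change of Slc2a4 was 0.030.

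Genes that reversed sign had not been called. In the order without the tract-rich libraries, without control libraries 3 to 5 and with the tract covariate, the log2 change was 0.35, 0.21 and 0.55 for Cd9, 1.83, 1.81 and 1.66 for Sqle, -0.65, -0.75 and -0.55 for Adipoq, -0.49, -0.58 and -0.52 for Pparg, and 0.94, 0.86 and 0.61 for Clu. For Itm2b the first and second were 0.31 and 0.27. With voom it was 1.54 for Sqle, -0.51 for Adipoq, -0.15 for Pparg and 0.15 for Clu. With 1 library left out, Adipoq ranged from -0.25 to 0.39, Pparg from -0.027 to 0.66 and Slc2a4 from -0.53 to 0.20. Without control libraries 3 to 5 the diet difference of summed CPM turned to -4.61 for brown adipocyte, -846 for endothelial, -2.56 for skeletal muscle and 205 for germ cell markers, and on raw library totals to 71.9 for erythroid and 7.24 for nerve markers.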
